A study of Homo sapiens with 3 samples.

Results

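The genes described here encode the subunits of the oxidative phosphorylation system in LX-2 cells. They were chosen by gene symbol and type alone: protein-coding rows named as NDUF, SDH, UQCR, CYC1, COX and ATP5 genes in the nucleus, and the MT-ND, MT-CO, MT-CYB and MT-ATP genes in the mitochondrion. These patterns found 94 genes of the 26108 in the deposited table, of which 81 lie on nuclear chromosomes and 13 on the mitochondrial chromosome. The rule itself used no expression value, but it was set with earlier results of these data known. The names also took in ATP5IF1, an inhibitor protein of ATP synthase, and COX7A2L, a factor that joins complexes into larger assemblies, which are not core parts of the enzymes. NDUFA4 was counted with complex I by its name, although its protein is now placed in complex IV.

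LX-2 cells are an immortalised line of human hepatic stellate cells, the liver cell type that turns into collagen-producing fibroblasts. Poly(A) RNA was sequenced from 1 culture given vehicle, 1 given recombinant human FGF19 (rhFGF19) at 50 ng/mL and 1 given rhFGF19 at 100 ng/mL, all of the same line and with no genetic change named. FGF19 is an endocrine growth factor that signals through FGFR4, and the study asked how it changes gene expression in these cells. Stimulation lasted 24 h by the series design but 72 h and 73 h by the sample records, which also exchange the 50 and 100 ng/mL doses. Doses follow the sample titles here, so an exchange of the rhFGF19 libraries would exchange the dose names in every sentence. With 1 library per condition there was no replicate error, and every difference below is between single libraries, without a test.

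Oxidative phosphorylation is the process by which mitochondria turn the energy of electrons into ATP. Complexes I and II pass electrons from NADH and succinate to ubiquinone, complex III passes them to cytochrome c, complex IV passes them to oxygen, and ATP synthase uses the resulting proton gradient to make ATP. Complex II is encoded wholly in the nucleus, while the other enzymes combine subunits from both genomes, and mitochondrial genes are read as long joint transcripts that are then cut into single mRNAs. Stellate cells that become activated are known to raise glycolysis alongside mitochondrial respiration.

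The values are FPKM, which divides fragment numbers by transcript length and by the library's mapped fragments. Base composition is not part of this scaling. Spearman's rho of level with transcript GC over all genes tested was 0.50 in vehicle and 0.25 in both rhFGF19 libraries. Levels and ratios between genes of unlike GC are therefore given as listed, and their relation to molecule numbers was not tested. Fold changes are differences of log2(FPKM + 0.1), which understates the change of low genes, and 2-fold is a difference above 1. A gene was kept when its mean over the 3 libraries reached 0.5 FPKM, which 12447 genes and all 94 members did. Read counts are not held in FPKM, so the depth is unknown and no interval is given. The vehicle library stood apart from both rhFGF19 libraries over the whole table: the median log2 fold change of all genes tested was 0.62 at 50 and 0.61 at 100 ng/mL. Of 11 stellate or myofibroblast markers, 8 passed the filter, with summed levels of 1103, 1154 and 1163 FPKM in the vehicle, 50 and 100 ng/mL libraries. VIM, SPARC and TIMP1 were high, whereas LRAT was listed at 0 in all 3 libraries, DES in all but the 100 ng/mL library, and COL1A2 stayed at or under 0.14 FPKM. Summed hepatocyte, epithelial and endothelial markers reached no more than 2.89, 0.23 and 0.50 FPKM, and the leukocyte list held mainly CD68 with 47.5, 44.2 and 39.8 FPKM.

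Nuclear and mitochondrial subunit genes differed in direction. All 13 MT- genes were higher in both rhFGF19 libraries than in vehicle, beside 65.4% and 65.6% of all genes tested at 50 and 100 ng/mL. None of the 13 passed 2-fold, beside 41.2% and 40.1% of all genes in either direction. The median of their log2 fold changes was 0.54 at 50 ng/mL, with a range from 0.30 to 0.80, and 0.65 at 100 ng/mL, with a range from 0.34 to 0.86. The 81 nuclear genes had a median of −0.24 at 50 and −0.19 at 100 ng/mL, but ranged from −1.07 to 1.94 and from −1.10 to 1.91. Thus the mitochondrial genes moved as a narrow band and the nuclear genes spread to both sides of it: at 50 ng/mL 53 nuclear genes lay below the MT- range, 12 inside and 16 above, and at 100 ng/mL 54, 11 and 16. The SD over genes was 0.84 and 0.82 for the nuclear set and 0.17 at both doses for the MT- set.

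Of the nuclear genes, 12 were more than 2-fold higher at 50 ng/mL and 3 more than 2-fold lower, beside 39.4% and 1.78% of all genes tested, 41.2% in either direction. At 100 ng/mL 14 were higher and 1 lower, beside 38.5% and 1.58% of all genes, 40.1% in either direction. The split depended on the scaling: with the median ratio to vehicle set to 0 it was 9 higher and 10 lower at 50 and 10 and 8 at 100 ng/mL, and with TPM, in which every library has the same sum, 16 and 0 at 50 and 15 and 1 at 100 ng/mL. The same direction was seen at both doses for 33 genes above vehicle and 45 below it, and the remaining 3 were NDUFS5, NDUFA6 and COX6B2. The share of nuclear members past 2-fold upward was 14.8% and 17.3%, so it lay under the share over all genes, while 65.4% and 65.6% of all genes were above 0. Set against the median of all genes, the nuclear median differed by −0.86 and −0.81 on the log2 scale, with 63 and 62 of 81 genes below it. By the same measure the MT- median differed by −0.08 and 0.04, with 8 and 6 of 13 genes below it. These offsets depended on the settings. Quantile normalization changed the nuclear offsets to −0.30 and −0.17 and those of the MT- median to 0.74 and 0.76. With no filter they were −0.52 and −0.47 for the nuclear and 0.26 and 0.38 for the MT- median, with 0 of 13 MT- genes below the median of all genes. With a pseudocount of 1 they were −0.65 and −0.60 and 0.13 and 0.25, with 3 and 1 MT- genes below. The MT- offset at 50 ng/mL was also above 0 with a mean of at least 1 FPKM (0.019) and with the length trend removed (0.17), so its sign at that dose was not stable, while the nuclear offset was below 0 under every setting tried. All 13 MT- genes lay above vehicle, and the nuclear median below it, under every scaling, pseudocount and filter tried.

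**Figure D1:**
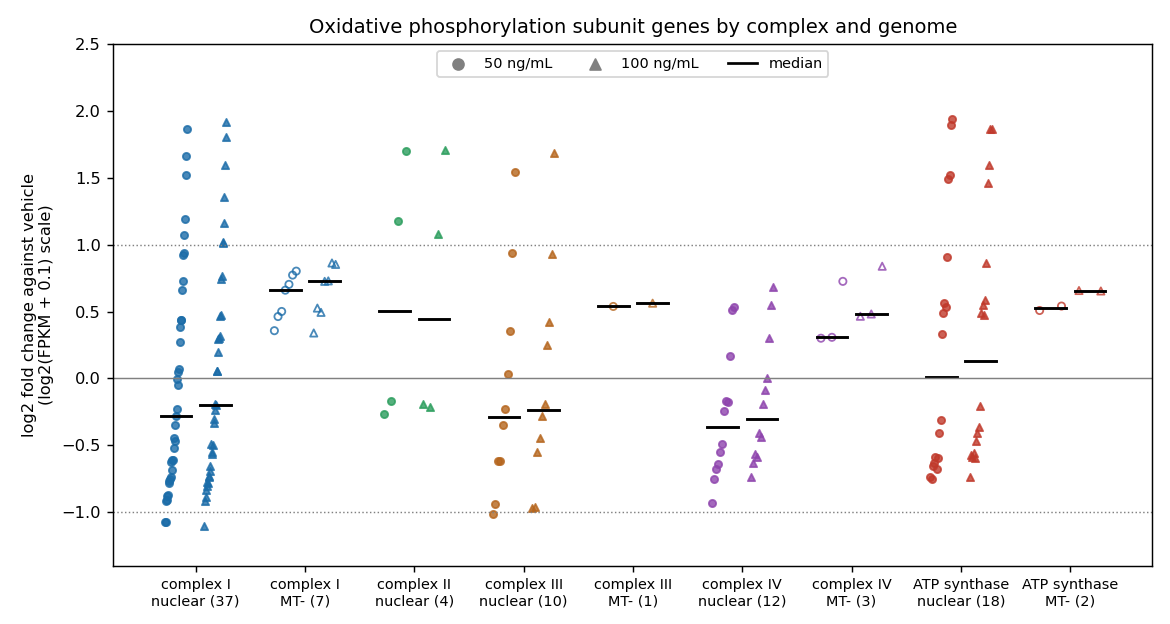
Log2 fold change against vehicle (y axis, log2(FPKM + 0.1) scale) of every subunit gene, by complex and genome (x axis, number of genes in brackets). Circles are the 50 ng/mL library, triangles the 100 ng/mL library, filled marks nuclear and open marks MT- genes, black bars medians and dotted lines 2-fold. The 13 MT- genes lie between 0.30 and 0.86, the nuclear genes of complexes I and III run from near −1 to above 1.5, and those of ATP synthase from −0.75 to 1.94.

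Summed levels also differed between the genomes. The 13 MT- genes together had 21360 FPKM in vehicle, 31410 at 50 and 33681 at 100 ng/mL, which was 7.07%, 11.4% and 11.96% of all FPKM in those libraries. The 81 nuclear genes together had 6019, 4307 and 4521 FPKM, or 1.99%, 1.56% and 1.61%. The 5 most abundant nuclear genes of each library held 40.0%, 35.3% and 34.9% of that sum. The 27 nuclear genes of lowest transcript GC summed to 516, 658 and 690 FPKM and were thus higher with rhFGF19. The 27 of middle GC summed to 2044, 1628 and 1703 FPKM, and the 27 of highest GC to 3459, 2021 and 2129 FPKM. Mitochondrial transcripts therefore outweighed nuclear ones by a ratio of 3.55 in vehicle, 7.29 at 50 and 7.45 at 100 ng/mL. FPKM values are relative within a library, so more mitochondrial RNA per cell and less of other RNA cannot be told apart, nor can a changed number of mitochondria and a changed RNA content of each.

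Among the mitochondrial genes, MT-CO1, which encodes the catalytic subunit of complex IV, had the highest level in every library, with 3474 FPKM in vehicle, 5744 at 50 and 6212 at 100 ng/mL, log2 fold changes of 0.73 and 0.84. MT-CO2 and MT-CO3, the other core subunits of that enzyme, had 2245 and 1861 FPKM in vehicle, 2778 and 2292 at 50 and 3135 and 2568 at 100 ng/mL. Their fold changes of 0.31 and 0.48 for MT-CO2 and of 0.30 and 0.46 for MT-CO3 were among the smallest of the set. The cytochrome b gene MT-CYB, the mitochondrial member of complex III, went from 1010 to 1466 and 1491 FPKM.

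The 7 mitochondrial complex I genes encode its membrane arm. MT-ND4 had 1379, 2404 and 2489 FPKM and MT-ND4L 1371, 2342 and 2494 FPKM, and these neighbours had the highest fold changes of the set, 0.80 and 0.85 for MT-ND4 and 0.77 and 0.86 for MT-ND4L. MT-ND2 went from 817 to 1290 and 1351 FPKM, and MT-ND6, the member read from the other strand, from 685 to 1115 and 1135 FPKM. Smaller differences were seen for MT-ND5 (796, 1127 and 1121 FPKM), MT-ND3 (399, 550.0 and 575 FPKM) and MT-ND1 (1381, 1768 and 1747 FPKM). MT-ND1 had the smallest fold change at 100 ng/mL, 0.34, and MT-ND3 the lowest level of all 13 in each library. MT-ND6 on the other strand thus lay inside the band of the others.

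The mitochondrial ATP synthase genes MT-ATP8 and MT-ATP6, which encode membrane subunits of the proton channel side, lie on a shared transcript and overlap. MT-ATP8 had 3431, 4878 and 5410 FPKM and MT-ATP6 2512, 3655 and 3952 FPKM, so their ratio stayed at 1.37, 1.33 and 1.37. The 46 bases that both genes hold, at MT:8527-8572 on the plus strand of GRCh38, are printed to show what the genes share, with the start codon of MT-ATP6 in capitals.
MT-ATP8 and MT-ATP6: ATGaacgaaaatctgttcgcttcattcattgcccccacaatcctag
A fragment from this stretch cannot be given to either gene alone. The same holds for 7 bases shared by MT-ND4L and MT-ND4 and for 1 base shared by MT-ATP6 and MT-CO3. Nuclear copies of mitochondrial protein genes made up 20 further rows, not members here, with summed levels of 524, 811 and 862 FPKM, or 2.45%, 2.58% and 2.56% of the MT- sum. MTATP6P1 on chromosome 1 held most of this, at 351, 525 and 567 FPKM, and reads that fit both it and MT-ATP6 cannot be told apart in these values.

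**Figure D2:**
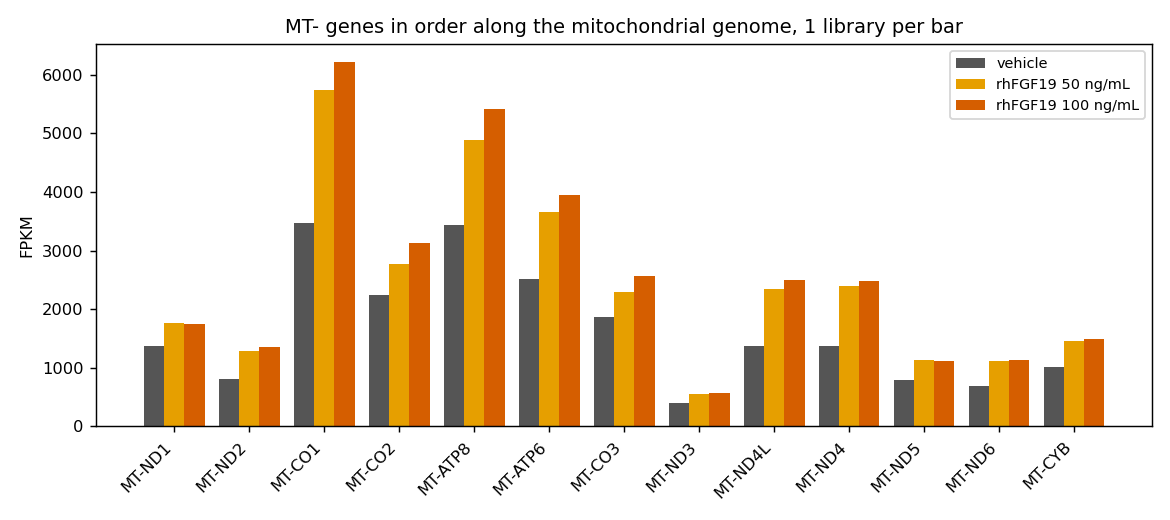
FPKM (y axis, linear from 0) of the 13 MT- genes in their order along the mitochondrial genome (x axis), with 1 bar per library and no error bar because each condition had 1 library. Both rhFGF19 bars exceed the vehicle bar for every gene, from 399 against 550.0 FPKM for MT-ND3 to 3474 against 5744 FPKM for MT-CO1 at 50 ng/mL.

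The nuclear ATP synthase genes split in direction, 9 above and 9 below vehicle at both doses. These 18 genes had a median of 0.01 at 50 and 0.13 at 100 ng/mL. At both doses 4 of them, or 22.2%, were more than 2-fold higher, beside 36.2% of all genes tested. None was more than 2-fold lower at either dose, beside 1.78% and 1.58% of all genes. As background for this and later counts by direction, 7857 of all 12447 genes tested were above and 3975 below vehicle at both doses. The F1 head, where ATP is made, is built from 5 subunits. ATP5F1A, its alpha subunit, had 12.6 FPKM in vehicle, 35.7 at 50 and 34.9 at 100 ng/mL, log2 fold changes of 1.49 and 1.46. ATP5F1B, the beta subunit that carries the catalytic sites, had 605, 456 and 470 FPKM, fold changes of −0.41 and −0.36. These proteins are used in equal number in the enzyme. In FPKM, ATP5F1B exceeded ATP5F1A by a ratio of 47.9 in vehicle and of 12.8 and 13.4 with rhFGF19. How far such a ratio depends on base composition was not tested.

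The alpha and beta subunits are related nucleotide-binding proteins. To show that relation in the genes themselves, 96 coding bases around the phosphate-binding loop (Walker A motif) are printed from the GENCODE v29 transcripts, with the 8 codons of the loop in capitals. ATP5F1A lies on chr18:46080248-46104233 (minus strand) and ATP5F1B on chr12:56638175-56645984 (minus strand).
ATP5F1A: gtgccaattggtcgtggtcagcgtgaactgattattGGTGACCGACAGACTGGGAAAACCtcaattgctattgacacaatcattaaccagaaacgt
ATP5F1B: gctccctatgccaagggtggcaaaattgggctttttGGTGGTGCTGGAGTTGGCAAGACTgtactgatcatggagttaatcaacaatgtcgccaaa
In these windows 37 of 96 bases and 8 of 32 encoded residues were the same. Over the whole coding sequence GC made up 47.9% of ATP5F1A and 51.3% of ATP5F1B. In their listed transcripts GC made up 45.4% and 50.2%, and their fold changes were 1.49 and −0.41 at 50 ng/mL.

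The gamma subunit ATP5F1C, the rotating shaft of the head, had 5.81, 21.9 and 21.4 FPKM, fold changes of 1.89 and 1.86. ATP5F1E, the epsilon subunit, had 6.77, 19.6 and 20.6 FPKM. ATP5F1D, the delta subunit, ran the other way with 54.2, 32.4 and 32.5 FPKM and a fold change of −0.74 at both doses, the lowest mean of both doses among the nuclear ATP synthase genes. Within 1 head, 3 genes were thus more than 2-fold higher at both doses, beside 36.2% of all genes tested, and the other 2 lower than vehicle.

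The 4 genes of the peripheral stalk, which holds the head still, were all above vehicle. Their medians were 0.74 and 0.73, beside 0.62 and 0.61 for all genes tested. With the trend on transcript GC removed, as described further on, the stalk medians were −0.46 and −0.44, with 1 of 4 genes above the trend. Those of the small membrane subunits were then −1.10 at both doses. ATP5PB, the largest stalk subunit, had 7.04, 27.3 and 25.9 FPKM, and its fold changes of 1.94 and 1.86 were the highest mean change among all members. ATP5PO, ATP5PD and ATP5PF had fold changes between 0.53 and 0.90 at 50 ng/mL. By contrast, 4 of the 5 small membrane subunits were lower, with medians of −0.58 and −0.41 and with ATP5MD, at 28.8, 40.4 and 42.2 FPKM, as the exception.

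Subunit c forms the proton-driven ring, and its mature protein is made from 3 genes. ATP5MC1 had 49.9, 29.5 and 33.5 FPKM, ATP5MC2 86.6, 55.7 and 58.8 FPKM, and ATP5MC3 31.5, 19.95 and 20.9 FPKM. All 3 were lower with rhFGF19, with fold changes between −0.75 and −0.63 at 50 ng/mL and between −0.59 and −0.56 at 100 ng/mL, so their order and proportions hardly moved: the ratio of ATP5MC2 to ATP5MC3 was 2.75, 2.79 and 2.81. The last 225 coding bases before the stop codon, which encode the mature ring protein, are printed from GENCODE v29 because the genes differ in bases and not in protein there. ATP5MC1 is on chr17:48892765-48895871 (plus strand), ATP5MC2 on chr12:53632726-53676728 (minus strand) and ATP5MC3 on chr2:175176258-175184607 (minus strand).
ATP5MC1: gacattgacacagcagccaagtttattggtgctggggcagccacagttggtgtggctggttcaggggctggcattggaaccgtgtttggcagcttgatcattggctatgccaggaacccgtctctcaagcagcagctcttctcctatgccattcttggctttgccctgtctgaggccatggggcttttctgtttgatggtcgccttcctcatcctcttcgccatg
ATP5MC2: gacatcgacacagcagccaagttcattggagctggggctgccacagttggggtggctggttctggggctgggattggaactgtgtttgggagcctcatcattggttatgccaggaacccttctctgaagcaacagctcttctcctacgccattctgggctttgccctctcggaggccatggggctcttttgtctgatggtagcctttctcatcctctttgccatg
ATP5MC3: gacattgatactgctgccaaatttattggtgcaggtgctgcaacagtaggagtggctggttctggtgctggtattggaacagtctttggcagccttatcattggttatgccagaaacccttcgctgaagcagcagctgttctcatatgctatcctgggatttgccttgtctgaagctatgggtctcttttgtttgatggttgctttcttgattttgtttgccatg
All 75 codons encode the same residues in the 3 genes. ATP5MC1 and ATP5MC2 share 200 of 225 bases and 51 of 75 codons, while ATP5MC3 shares 183 bases and 36 codons with each of them. The stretches hold 54.7%, 55.1% and 45.8% GC, respectively, and the listed transcripts 53.8%, 55.1% and 45.6%. With the GC trend removed, the mean of both doses was −0.91 for ATP5MC1, −0.69 for ATP5MC2 and −1.82 for ATP5MC3. How far their fold changes depend on GC was not tested. Processed copies of subunit c genes stood in separate rows of the table (ATP5MC1P4, ATP5MC2P4), none above 2.29 FPKM, and how reads shared between copies were assigned is not given in the sources used here.

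**Figure D3:**
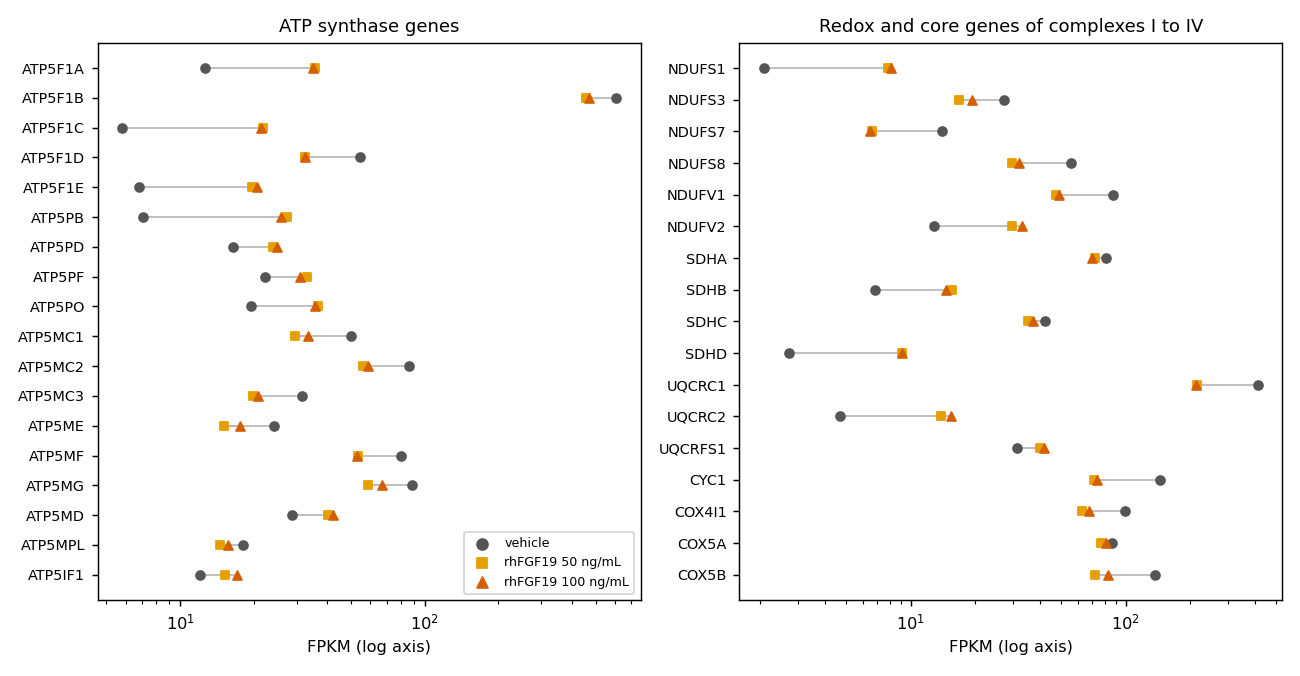
FPKM on a log axis (x axis) of the 18 nuclear ATP synthase genes (left) and 17 redox or core genes of complexes I to IV (right), with 1 mark per library joined by a line. The vehicle mark lies left of both rhFGF19 marks for ATP5F1A, ATP5F1C, ATP5F1E and the 4 ATP5P genes and right of them for ATP5F1B, ATP5F1D and the 3 ATP5MC genes, and the rhFGF19 marks lie close together throughout.

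Complex I, the NADH dehydrogenase, has 37 nuclear genes by name here, with medians of −0.28 and −0.20. At 50 ng/mL 5 were more than 2-fold higher and 2 lower, and at 100 ng/mL 7 were higher and 1 lower. The shares higher, 13.5% and 18.9%, lay under the 39.4% and 38.5% of all genes tested. Of all genes 1.78% and 1.58% were lower. Its 7 redox and quinone-site subunits split 2 against 5, with medians of −0.68 and −0.56. NDUFS1, the largest iron-sulfur subunit, had 2.08 FPKM in vehicle, 7.84 at 50 and 8.12 at 100 ng/mL, fold changes of 1.86 and 1.91 and the highest of the complex. NDUFV2, which holds an iron-sulfur cluster at the NADH end, had 12.8, 29.5 and 33.0 FPKM, fold changes of 1.20 and 1.36. NDUFV1, its partner that binds NADH and flavin, went the other way with 87.2, 47.3 and 48.8 FPKM. This took the ratio of NDUFV1 to NDUFV2 from 6.81 to 1.61 and 1.48. Their transcripts hold 60.5% and 43.3% GC.

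The quinone-side subunits of complex I were lower. NDUFS7, which carries the cluster that hands electrons to ubiquinone, had 14.1, 6.63 and 6.50 FPKM, fold changes of −1.07 and −1.10, the lowest of the complex and the 1 member more than 2-fold lower at both doses, beside 0.683% of all genes tested. NDUFS3 and NDUFS8 differed from vehicle by −0.68 and −0.91 at 50 and by −0.49 and −0.80 at 100 ng/mL on the log2 scale. In levels, NDUFS8 had 55.8, 29.7 and 32.0 FPKM and NDUFS3 27.1, 16.9 and 19.2 FPKM.

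The 30 accessory subunits of complex I had medians of −0.14 and −0.07, with 13 above and 15 below vehicle at both doses. NDUFS4, an accessory subunit linked to Leigh syndrome when mutated, had 3.80, 12.3 and 13.5 FPKM, fold changes of 1.66 and 1.80. NDUFS6, the most abundant nuclear complex I transcript in vehicle, had 310, 182 and 180.0 FPKM. NDUFB7, which was just past 2-fold lower at 50 ng/mL and not at 100 ng/mL, had 253, 120 and 134 FPKM. NDUFC2 and NDUFA12, with 0.94 and 0.93 at 50 and 1.02 and 1.01 at 100 ng/mL, are the genes that make the count of higher genes differ between the doses.

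Complex II, succinate dehydrogenase, also serves the citric acid cycle. Its 4 subunits fell into pairs: the membrane anchor SDHD had 2.72, 9.08 and 9.12 FPKM (1.70 and 1.71) and the iron-sulfur subunit SDHB 6.86, 15.6 and 14.6 FPKM (1.18 and 1.08), whereas the flavin subunit SDHA had 80.6, 71.9 and 69.5 FPKM (−0.17 and −0.21) and the anchor SDHC 42.1, 35.1 and 36.9 FPKM (−0.26 and −0.19). The pairs that were far apart in vehicle came closer, since the ratio of SDHA to SDHB went from 11.8 to 4.60 and 4.76 and that of SDHC to SDHD from 15.5 to 3.86 and 4.05. SDHA has a listed overlapping gene on the same strand at 1.87, 4.93 and 4.68 FPKM.

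Complex III, the cytochrome bc1 complex, had medians of −0.29 and −0.24 over 10 nuclear genes. UQCRC1 and UQCRC2 encode its paired core proteins, which are present in equal number. UQCRC1 had 412 FPKM in vehicle, 215 at 50 and 212 at 100 ng/mL, fold changes of −0.94 and −0.96, and was the most abundant of the complex in vehicle. UQCRC2 had 4.70, 13.9 and 15.3 FPKM, fold changes of 1.55 and 1.68, the highest of the complex. Their ratio went from 87.7 in vehicle to 15.5 and 13.8. CYC1, the cytochrome c1 that hands electrons on, had 144, 71.5 and 73.8 FPKM with fold changes of −1.01 and −0.97, the lowest of the complex, while UQCRFS1, the Rieske iron-sulfur protein, had 31.1, 39.9 and 41.8 FPKM.

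The promoters of the core protein pair are printed because these genes stood farthest apart within a pair of partners, a choice made after their values were seen. The windows run from 250 bases before to 50 bases after the start in RefSeq on GRCh38.p14, with UQCRC1 at chr3:48609597-48609896 (minus strand) and UQCRC2 at chr16:21953111-21953410 (plus strand). Capitals mark matches to the motifs described further on: in UQCRC1 NRF1 at bases 204 to 213 on the minus strand of the window and YY1 at bases 274 to 281 on its plus strand, and none in UQCRC2.
UQCRC1: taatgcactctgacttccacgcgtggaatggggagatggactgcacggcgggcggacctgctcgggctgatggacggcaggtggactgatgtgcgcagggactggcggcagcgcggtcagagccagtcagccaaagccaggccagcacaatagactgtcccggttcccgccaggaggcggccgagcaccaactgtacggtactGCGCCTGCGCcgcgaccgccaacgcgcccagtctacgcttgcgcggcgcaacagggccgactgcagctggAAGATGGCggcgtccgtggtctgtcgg
UQCRC2: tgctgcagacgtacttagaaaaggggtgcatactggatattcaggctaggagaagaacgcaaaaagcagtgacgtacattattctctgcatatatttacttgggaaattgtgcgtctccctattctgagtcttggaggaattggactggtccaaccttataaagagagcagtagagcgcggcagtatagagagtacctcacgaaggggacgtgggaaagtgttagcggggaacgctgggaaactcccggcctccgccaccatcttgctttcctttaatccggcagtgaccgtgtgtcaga
GC makes up 67.3% of the UQCRC1 window and 49.3% of the UQCRC2 window. Their transcripts differ the same way, with 59.0% and 42.8% GC.

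Complex IV, cytochrome c oxidase, had medians of −0.37 and −0.30 over 12 nuclear genes. None of them passed 2-fold in either direction, beside 41.2% and 40.1% of all genes tested. COX8A, the most abundant nuclear member of all in every library, had 811, 483 and 524 FPKM. COX5B had 137, 71.9 and 82.5 FPKM and the lowest fold changes of the complex, −0.93 and −0.73, and COX4I1, the subunit through which ATP regulates the enzyme, had 99.8, 62.4 and 67.5 FPKM. COX5A had 86.1, 76.6 and 81.1 FPKM. COX7B had the highest fold changes, 0.53 and 0.68, at 14.9, 21.6 and 24.0 FPKM.

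Among isoforms with tissue-specific partners, COX6A1, COX6B1 and COX7A2, the forms found in most tissues, differed from vehicle by −0.49, −0.55 and −0.64 at 50 and by −0.43, −0.41 and −0.59 at 100 ng/mL on the log2 scale. COX6B2, the testis form, was at 0.61, 0.53 and 0.61 FPKM, and COX6B1 exceeded it by a ratio of 234, 184 and 176. UQCRHL, a near copy of UQCRH, was at 1.11, 1.14 and 1.34 FPKM beside 62.3, 53.1 and 54.6 FPKM for UQCRH. Such near copies can share reads and their levels are uncertain, as is COX6A1 beside its processed copy COX6A1P2, listed at 13.4, 8.77 and 7.50 FPKM.

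The rhFGF19 libraries hardly differed from each other. Between 100 and 50 ng/mL the median difference was 0.06 on the log2 scale for nuclear and 0.07 for MT- genes, the SD over all 94 members was 0.074, and the largest difference was 0.24, at NDUFS5, with 132 and 157 FPKM. None of the 94 passed 2-fold in either direction, beside 0.852% higher and 0.884% lower, or 1.74%, of all genes tested. Of the 94, 78 were a little higher at 100 than at 50 ng/mL, beside 49.1% of all genes. Both fold changes against vehicle use the same vehicle library, so that their likeness follows in part from the shared control.

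The direction of a nuclear member went with the base composition of its transcripts. GC content was the median over the transcripts listed for a gene and was found for all 94 members. Among the 27 nuclear genes of lowest GC, 23 were above vehicle at both doses, beside 7857 of all 12447 genes tested. Their medians were 0.57 and 0.68, near the 0.62 and 0.61 of all genes. More than 2-fold higher were 10 and 11, or 37.0% and 40.7%, near the 39.4% and 38.5% of all genes. In the 27 of middle GC the medians were −0.23 and −0.19. In the 27 of highest GC, 26 were below vehicle at both doses and none above it, with medians of −0.74 and −0.65. Over all genes tested, 3975 of 12447 were below vehicle at both doses. Spearman's rho of GC with fold change was −0.80 at each dose over the 81 nuclear genes and −0.77 at each dose over 12397 genes tested, values across genes that share the same 3 libraries, while for 100 against 50 ng/mL it was 0.016 over the nuclear genes. The same relation therefore ran through the whole table and was not particular to these genes.

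MT- transcripts were all of low to middle GC, from 39.6% to 47.7%, and the nuclear ones spanned 36.4% to 68.3%. When the trend of fold change on GC over all genes was removed, the MT- median was −0.72 at 50 and −0.65 at 100 ng/mL and the nuclear median −0.72 and −0.64. The difference between MT- and nuclear medians, 0.78 and 0.85 without this step, was then 0.0044 and −0.011. None of the 13 MT- genes and 12 of the 81 nuclear genes then lay above the trend for the mean of both doses, so both sets were mostly lower than other genes of like GC. Among the MT- genes the distance from the trend ran from −0.37 for MT-CO1 to −0.97 for MT-ND3. With a trend on the mean level removed after that on GC, the nuclear medians were −0.49 and −0.41 and the MT- medians −0.04 and 0.05. Whether the GC relation arose in the cells or in making the libraries cannot be told apart with 1 library per condition.

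The members that stood farthest above the GC trend, by the mean of both doses, were SDHD (0.65), NDUFS1 (0.56), ATP5PB (0.54), ATP5F1C (0.44) and NDUFS4 (0.35), which were also among the largest fold changes. Farthest below were ATP5MG (−1.91), a small membrane subunit of ATP synthase with 88.7, 58.8 and 66.8 FPKM, ATP5MC3 (−1.82), COX7A2 (−1.80), COX7C (−1.64) and NDUFB2 (−1.55). These genes were named after their distances from the trend were seen.

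**Figure D4:**
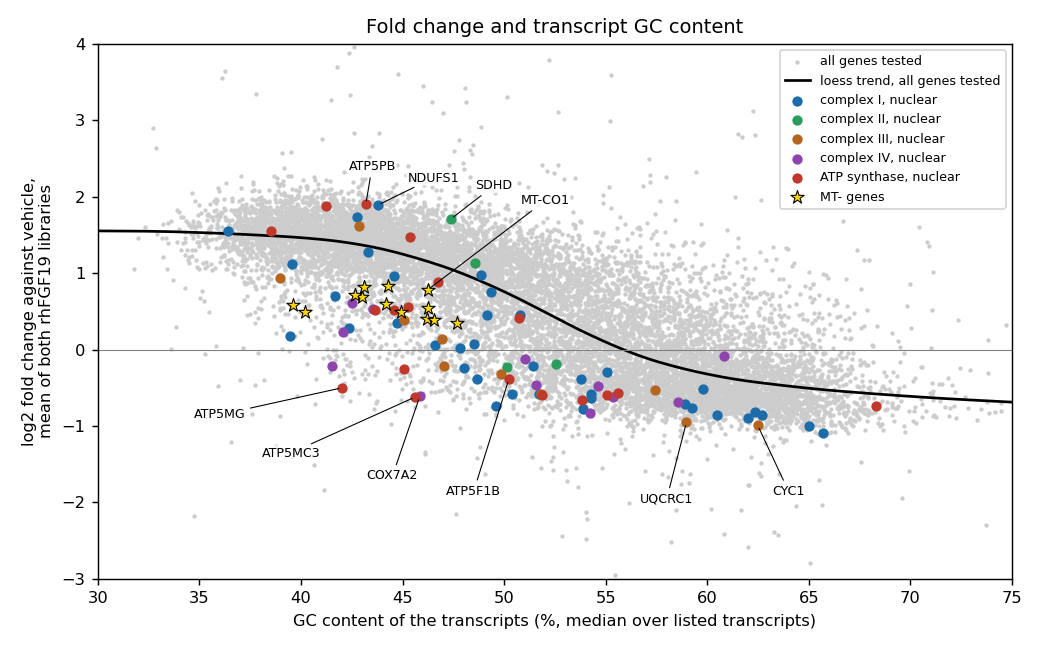
Mean log2 fold change of both rhFGF19 libraries against vehicle (y axis) and transcript GC content in percent (x axis), with nuclear members as coloured dots, MT- genes as stars, all other genes tested in grey and their loess trend as a line; 35 genes fall outside the axes. The nuclear members descend from left to right, with 12 of 81 above the line, and the 13 stars lie beneath it between 39.6% and 47.7% GC.

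Levels of nuclear members were less spread with rhFGF19 than without. The SD of log2 level over the 81 nuclear genes was 2.24 in vehicle and 1.75 in both rhFGF19 libraries. For ATP synthase the interquartile range went from 1.96 to 0.95 and 0.94. For the MT- genes the measures differed, with SDs of 0.94, 0.94 and 0.98 and interquartile ranges of 1.46, 1.11 and 1.21. A narrower spread was also seen over all genes tested, with SDs of 2.46, 2.06 and 2.07, and Spearman's rho of GC with level over the nuclear members was 0.53, 0.33 and 0.34.

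Promoter motifs known from respiratory genes were searched in the RefSeq windows, which were found for 66 of the 81 nuclear members. NRF1 (a motif of 10 letters, 1 of them free, matched in the UQCRC1 window above), a main activator of respiratory genes, had a match in 16 promoters, or 24.2%, beside 14.1% of 8898 protein-coding genes tested and 6.98% of all 27305 genes with a window. The ETS motif (CCGGAAGT), read by GABPA among others, had a match in 12, or 18.2%, beside 10.7% and 4.95%. YY1 (AAGATGGC) also had a match in 12, beside 6.91% and 3.52%. Both strands were searched, 33 promoters held at least 1 of the motifs, 7 held more than 1 kind, and no matches of different motifs overlapped. The median of the mean fold change was −0.20 with and −0.23 without NRF1, 0.15 and −0.23 for ETS, and 0.04 and −0.23 for YY1. A match is only a run of letters, and its use in these cells was not measured.

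The other genes of the pathway were taken from lists by function, of which 144 genes passed the filter. Of these, 61 were more than 2-fold higher at 50 ng/mL and 1 lower, and 59 and 2 at 100 ng/mL. The shares higher, 42.4% and 41.0%, were close to the 39.4% and 38.5% of all genes. Their medians of 0.80 and 0.75 lay above the 0.62 and 0.61 of all genes, where those of the nuclear subunits lay below. With the GC trend removed, the medians were −0.19 and −0.15, with 2 genes higher and 13 lower at 50 and 2 and 11 at 100 ng/mL.

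By function, genes that copy, read and process mitochondrial DNA had medians of 1.07 and 0.95, with 16 of 29 more than 2-fold higher at 50 and 14 at 100 ng/mL, beside the 39.4% and 38.5% of all genes. With the GC trend removed their medians were −0.025 and 0.018, near those of other genes of like GC. TFAM, which packs mitochondrial DNA and starts its transcription, had 1.19, 5.14 and 4.88 FPKM, TFB2M, a transcription factor of the same promoters, 0.69, 3.79 and 2.67 FPKM, and LRPPRC, which stabilises mitochondrial mRNAs, 0.86, 3.11 and 2.96 FPKM. The mitochondrial RNA polymerase POLRMT went the other way, with 19.1, 10.7 and 11.4 FPKM. Among 11 regulators of mitochondrial biogenesis 6 were more than 2-fold higher at both doses, beside 36.2% of all genes, with medians of 1.08 and 1.27, and of 0.07 at each dose with the GC trend removed. GABPA had 0.40, 1.92 and 1.44 FPKM and NRF1 4.31, 6.25 and 6.51 FPKM, whereas the coactivator PPARGC1A was listed at 0, 0 and 0.01 FPKM.

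Assembly factors and the remaining lists are given beside the same background of 39.4% higher and 1.78% lower at 50 and 38.5% and 1.58% at 100 ng/mL, and with so few genes per list no difference from it is read. For complex I 4 of 17 were more than 2-fold higher at 50 and 5 at 100 ng/mL, with none lower, and for complex IV 8 of 21 were higher and 1 was lower at both doses. That 1 was SCO2, a copper chaperone, at 6.06, 2.65 and 2.54 FPKM, while its relative SCO1 had 1.44, 3.63 and 3.17 FPKM. Complex II had 2 of 4 higher at 50 ng/mL, and at 100 ng/mL 1 higher and 1 lower. Complex III had 2 of 6 higher and ATP synthase 3 of 4 higher at both doses. Of 8 electron carriers and subunits outside the name rule, 4 were higher at both doses, among them cytochrome c (CYCS) with 2.25, 5.23 and 4.76 FPKM. Citric acid cycle and pyruvate dehydrogenase genes had 7 of 18 higher, and import, cristae and carrier genes 9 of 26, with none lower in either list.

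Overlapping genes limit some of these values. Of the 81 nuclear members, 43 overlap another listed gene, 25 on the same strand and 30 on the opposite strand, and the strand setting of the counting is not given in the sources used here. ATP5PB overlaps WDR77 (26.4, 26.9 and 26.6 FPKM) by 393 bases, and ATP5PF overlaps GABPA by 1077 bases. Both partners lie on the opposite strand, so without strand their reads in the overlap cannot be told apart. GABPA had at most 1.92 FPKM, far under ATP5PF. NDUFB2, named above as far below the GC trend, overlaps ADCK2 (32.4, 18.8 and 19.6 FPKM) by 5169 bases on the same strand. In vehicle, opposite-strand partners included RPS28 at 106.57 FPKM beside NDUFA7 at 13.13, and TFPT at 32.99 beside NDUFA3 at 9.53. CPSF4 had 36.43 FPKM beside 80.15 for ATP5MF, with 8899 bases shared. How far these overlaps shape the listed values was not tested.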

How the data were processed

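mRNA of LX-2 cells was sequenced in 3 libraries, 1 per condition, and samples were grouped by their titles. The authors extracted total RNA, selected poly(A) RNA, sequenced paired ends and mapped the reads with HISAT2, and they deposited 1 FPKM value per gene and library, written to 2 decimals. The submitters' processing notes name HISAT2 2.0, StringTie 1.3.0 and Bowtie 0.12.2 and the builds hg19 and mm8, without roles. Member identifiers were all found in GENCODE v29, and their coordinates overlapped GRCh38 for 94 of 94 (for 25499 of 25531 found over the whole table), so GRCh38 was used. The authors' methods mention logCPM, but only FPKM was deposited, and no count test was run.

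Differences of log2(FPKM + 0.1) between single libraries were taken over genes with a mean of at least 0.5, with 2-fold as the limit for a gene counted as higher or lower, after the study's methods. No p-value was computed. Complexes and roles were assigned by symbol. GC content and length were medians over the listed transcripts (found for 99.6% of genes tested), and trends were loess fits with a span of 0.3. Genes named were all MT- genes, the catalytic, redox and isoform subunits, and in each complex the highest and lowest fold change and the highest vehicle level, and others are named where a count turns on them. Of the genes under this rule, 1 is not reported here. The members and lists were chosen with earlier results of these data known. The procedure was run on simulated data in which 200 of 12447 genes were given changes well past 2-fold. All were recovered and no other gene was called, which the size of the changes largely fixed in advance. The simulated fold changes held no shift over the whole table like that of the vehicle library. The run therefore checks the arithmetic and not the calls made here. Another 11 settings were listed at the outset and 3 were added after seeing the data. Python 3.11.15, NumPy 2.4.6, pandas 2.3.3, SciPy 1.17.1, statsmodels 0.14.6 and matplotlib 3.10.9 were used.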

Additional observations from a re-analysis of the deposited data

Results flagged for a closer look

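The other MT- rows of the table, 24 genes for ribosomal and transfer RNAs, were in no comparison above. Of these, 6 were more than 2-fold higher than the vehicle library at both doses, beside 36.2% of all genes tested, so the share was under that of the whole table. MT-TA, MT-TC, MT-TG and MT-TN were below vehicle at both doses, between −0.25 and −0.090 at 50 and between −0.19 and −0.0014 at 100 ng/mL on the log2 scale. The ribosomal RNA MT-RNR1 had log2 fold changes of 1.44 at 50 and 1.45 at 100 ng/mL, from 88.7 to 241 and 243 FPKM, and MT-RNR2 had 1.61 at both doses, from 197 to 602 and 603 FPKM. The transfer RNA genes were MT-TD (1.66 and 1.57), MT-TF (1.28 and 1.17), MT-TH (1.31 and 1.37) and MT-TK (2.55 and 2.72). Levels of genes this short are uncertain in FPKM, and ribosomal and transfer RNAs are largely lost in poly(A) selection. MT-TK and MT-TD lie beside MT-ATP8 and MT-CO2, whose fold changes were 0.51 and 0.66 and 0.31 and 0.48, and reads of the neighbours were not separated. Their relation to the mRNA values was not tested.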

How the results depend on the processing

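No paired analysis was possible because each condition had 1 library, and leaving out a replicate could not be run for the same reason. A median was taken to have moved when it changed by more than 0.074, the SD over members of the difference between the rhFGF19 libraries, and a count when it changed by more than 1.5 times. A pseudocount of 0.01 and a mean of at least 1 FPKM moved none of the medians and counts of members and pathway list genes, no filter moved among these only the lower pathway list genes at 50 ng/mL (2), and the medians for 100 against 50 ng/mL moved under none of the alternatives. The median of all genes tested, 0.62 and 0.61, did move with the filter, to 0.27 and 0.27 without one and to 0.52 and 0.51 at a mean of at least 1 FPKM, and was 0.41 and 0.40 with a pseudocount of 1. Values are given for 50 and then 100 ng/mL unless named.

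With a pseudocount of 1, the nuclear genes higher at 100 ng/mL were 9, the pathway list genes higher were 34 and 31, and the pathway list genes lower were 0 at both doses. With TPM the nuclear medians were −0.12 and −0.093, the MT- medians 0.67 and 0.76, the nuclear genes lower at 50 ng/mL 0 and the pathway list genes lower at 100 ng/mL 1. With MT- genes left out of the TPM total the nuclear medians were −0.037 and −0.0040, the MT- medians 0.74 and 0.84, the MT- genes higher 1 and 3, the nuclear genes lower 0 and 0, and the pathway list genes lower 0 and 1. With the median ratio to vehicle set to 0 the nuclear medians were −0.47 and −0.42, the MT- medians 0.31 and 0.43, the nuclear genes lower 10 and 8, and the pathway list genes lower 6 and 5. With quantile normalization the MT- medians were 0.85 and 0.84, the nuclear median at 100 ng/mL −0.083, the difference of MT- and nuclear medians 1.04 and 0.93, the MT- genes higher 1 and 2, the nuclear genes lower at 50 ng/mL 1, and the pathway list genes higher 16 and 13 and lower 6 and 4. With a threshold of 1.5-fold the MT- genes higher were 5 and 7, the nuclear genes lower 28 and 19, and the pathway list genes lower 21 and 19.

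Where a trend is removed, values are distances from that trend and not from vehicle, and higher and lower are meant in that sense. With the GC trend removed the nuclear medians were −0.72 and −0.64, the MT- medians −0.72 and −0.65 and their difference 0.0044 and −0.011. The nuclear genes were higher in 0 and 0 cases and lower in 26 and 20, 1 MT- gene was lower at 50 ng/mL, and the pathway list genes were higher in 2 and 2 cases and lower in 13 and 11. Fitting that trend on protein-coding genes gave nuclear medians of −0.75 and −0.67, MT- medians of −0.75 and −0.68 and differences of −0.0011 and −0.014, with nuclear genes higher in 0 and 0 and lower in 27 and 22 cases, 1 MT- gene lower at 50 ng/mL, and pathway list genes higher in 2 and 2 and lower in 13 and 13. Removing the GC trend and then the length trend gave nuclear medians of −0.66 and −0.58, MT- medians of −0.56 and −0.53 and differences of 0.094 and 0.050, with nuclear genes higher in 0 and 0 and lower in 19 and 13 cases and pathway list genes higher in 1 and 2 and lower in 11 and 8. Removing the GC trend and then that on mean level gave nuclear medians of −0.49 and −0.41, MT- medians of −0.035 and 0.049 and differences of 0.46 and 0.46, with nuclear genes higher in 0 and 0 and lower in 14 and 11 cases and pathway list genes higher in 1 and 2 and lower in 11 and 11. Removing the length trend alone gave nuclear medians of −0.70 and −0.56, MT- medians of 0.21 and 0.33 and a difference of 0.91 at 50 ng/mL, with nuclear genes higher at 100 ng/mL 9, lower 25 and 19, and pathway list genes higher 28 and 27 and lower 20 and 17. The GC trend of protein-coding genes, GC then length and GC then level were chosen after seeing the data. The cause of these changes was not tested.

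Single genes past 2-fold that changed sign, as the mean of both doses, were NDUFB5 (−0.36) and NDUFV2 (−0.080) with the GC trend removed, NDUFB5 (−0.38) and NDUFV2 (−0.11) with that of protein-coding genes, NDUFB5 (−0.30) and ATP5F1E (−0.058) with GC then length, and NDUFB5 (−0.48) and NDUFA5 (−0.057) with GC then level. The MT- genes above vehicle were 13 of 13 under all scalings, pseudocounts and filters. With a trend removed, the MT- genes above that trend were 10 for length, 6 for GC then level and 0 for the other GC trends. Depth is unknown from FPKM, so values near 1 FPKM, such as those of COX6B2, UQCRHL and NDUFA5, are less certain than those of abundant genes, and with 1 library per condition no difference here has a replicate check.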
